A study of Ovis aries with 18 samples.

Results

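The 98 genes described here are among the 100 genes with the highest read counts in the ovine pars tuberalis (PT). In the average animal they held close to 50% of all reads counted on genes. They were chosen by their level. Reads of each animal were expressed as counts per 1000000 gene counts (CPM), with no further scaling, and the 100 genes with the highest mean over 15 animals were taken from 25197 gene IDs, of which 22077 had a count in any of those animals. Genes in which every long-photoperiod animal lay on the same side of every short-photoperiod animal were then left out, which removed 2. One of them, ENSOARG00000013347 (rank 51), lay between 925 and 1602 CPM on short and between 139 and 624 CPM on long photoperiod. The other, ENSOARG00000009822 (rank 89), lay between 556 and 784 CPM on short and between 352 and 547 CPM on long photoperiod. Both genes were lower in every long-photoperiod animal, and no gene was removed for the opposite pattern. Ranks below are the places among the 100 before these 2 were removed. The last gene inside, ENSOARG00000007060, had a mean of 520.5 CPM, and the first gene outside had 518.9 CPM.

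The tissue came from castrated male sheep of the Scottish Blackface breed, which all groups shared. Days of 8 h light and 16 h dark (short photoperiod, SP) were given for 4 weeks (SP4) or 16 weeks (SP16), and days of 16 h light and 8 h dark (long photoperiod, LP) for 4 weeks (LP4) or 22 weeks (LP22). The labels number 4 samples in each group, called animals here. They do not state that each was a separate sheep, so that p-values measure the spread between these samples. The age and date at sampling were not given in the sources used here, and the prolonged exposures were not matched in length.

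The PT is the part of the pituitary that wraps the stalk below the hypothalamus. Its cells carry melatonin receptors and read the length of the night from the nightly melatonin signal. PT thyrotrophs release thyroid-stimulating hormone on long photoperiods, and the hormone acts back on cells lining the hypothalamus. In RNA-seq of a tissue every count is a part of a fixed total, so the level of a few very abundant transcripts also sets how much is left for all others. The deposited tables give Ensembl gene IDs without names, and none of these IDs was in the reference table at hand. Symbols that the study pairs with some IDs elsewhere were not used here. Genes are given by ID or by rank, no role is attached to any of them, and the cell types of the tissue were not checked against markers. Levels of different genes are in counts and were not divided by transcript length.

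Totals over genes ran from 1746861 to 5850281 counts per animal. In LP4, the only library of animal 3 and the first of animal 2 stood apart and were not used, so that LP4 held 3 animals and animal 2 entered through its repeat library alone. That repeat library also stood apart. Its scaling factor by the trimmed mean of M-values (TMM) was 0.634, against 0.965 to 1.08 in the other 14 animals, and the results it moved most are also given without it. SP4 animal 1 also had a repeat library, and its counts were summed over both.

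The share of counts held by the 98 genes was similar in SP and LP animals, apart from LP4 animal 2. In SP4 the genes held 51.9%, 48.8%, 46.9% and 50.9% of counts in animals 1 to 4. In SP16 they held 50.9%, 47.9%, 47.1% and 51.5%. In LP4 the share was 50.3% in animal 1, 66.6% in animal 2 and 48.2% in animal 4. In LP22 it was 49.6%, 48.5%, 48.6% and 46.6%. The 14 animals other than LP4 animal 2 thus lay within a narrow range that the 4 groups shared, and LP4 animal 2 lay far above it. The 95% Wilson intervals of these shares were at most 0.148 points wide, and they cover counting error only.

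Over 15 animals the mean share was 51.2% ± 6.91 (SD, n = 7) in LP and 49.5% ± 2.04 (SD, n = 8) in SP, a difference of 1.71 points. Without LP4 animal 2 the LP mean was 48.6% ± 1.29 (SD, n = 6), and the difference turned to -0.864 points. Both differences were smaller than the spread of 1.94 points between animals within SP4, SP16 and LP22. By group the mean share was 49.7% ± 2.22 in SP4, 49.3% ± 2.17 in SP16 and 48.3% ± 1.27 in LP22 (SD, n = 4 each), and 55.1% ± 10.1 in LP4 (SD, n = 3). No test was made of the share, since LP against SP was part of how the genes were chosen. In bulk tissue, fewer cells of a type and less RNA per cell cannot be told apart.

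**Figure D1:**
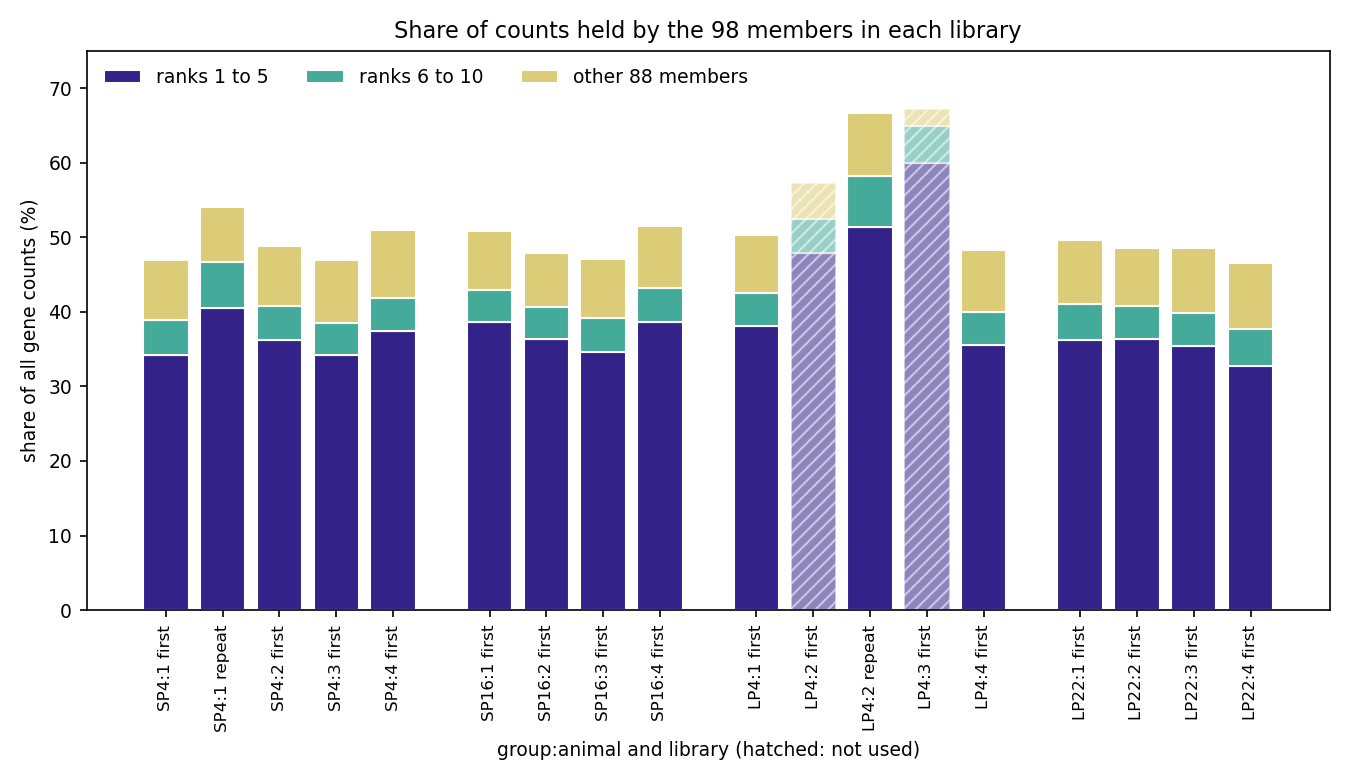
Share of all gene counts (%, y axis) held by the genes of ranks 1 to 5, ranks 6 to 10 and the other 88 in each of 18 libraries, by group and animal. Hatched bars are the 2 libraries not used. Most libraries sit near 49%, while the repeat libraries of SP4 animal 1 (54.0%) and LP4 animal 2 (66.6%) and both unused libraries (57.3% and 67.1%) stand higher.

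Both repeat libraries held a larger share than any first library that was used. In SP4 animal 1 the 98 genes took 47.0% of counts in the first library and 54.0% in the repeat. In LP4 animal 2 they took 57.3% in the first library and 66.6% in the repeat. When repeat libraries were left out, with 14 animals, the difference between LP and SP was -0.233 points. Reads that fell in no annotated gene made up 78.6% to 84.5% of the aligned reads in the libraries used, and 68.8% and 47.2% in the unused libraries of animals 2 and 3 of LP4. The part of library make-up in the shares was not tested.

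The excess in LP4 animal 2 came from a few genes. Its share exceeded the mean of the other 14 animals by 17.5 points. The genes of ranks 1, 3 and 4 accounted for 12.2 points, rank 5 for 2.84, rank 8 for 1.51 and rank 13 for 0.962. These 6 genes together gave 17.5 points. Of the 98 genes, 26 held a larger share in that animal than the mean of the others and 72 a smaller one, with a median ratio of 0.700.

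Most of the share was held by 5 genes. The genes of ranks 1 to 5 were also the 5 highest in each of the 15 animals, with means of 36.6% ± 1.92 of counts in SP4, 37.0% ± 1.91 in SP16 and 35.2% ± 1.73 in LP22 (SD, n = 4 each). In LP4 they held 38.1%, 51.4% and 35.5% in animals 1, 2 and 4. Ranks 6 to 10 held 4.61% ± 0.461 in SP (n = 8) and 4.89% ± 0.861 in LP (n = 7). The other 88 genes held 8.06% ± 0.526 in SP and 8.33% ± 0.434 in LP, and 8.31% ± 0.472 in LP without animal 2 of LP4 (n = 6). The 1st gene was 167-fold above the 100th, 7 genes had a mean of at least 10000 CPM, and 63 lay under 1000 CPM. The genes were chosen by their mean over these 15 animals, so overlap with the highest genes of each animal is partly built in. Between 79 and 93 of the 98 genes were among the 100 highest of a given animal, the lowest number being that of LP4 animal 2. Of the 98, 64 were among them in all 15 animals, and the fewest animals for any gene was 2. The 100 highest of the LP mean and of the SP mean shared 87 genes, and 89 without LP4 animal 2.

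The highest gene was ENSOARG00000024340, with 8.68% of counts on average. It stood at 83980, 80622, 74624 and 85837 CPM in SP4 animals 1 to 4 and at 93489, 83661, 83162 and 95783 CPM in SP16. It stood at 93838, 130295 and 83013 CPM in LP4 animals 1, 2 and 4, and at 80733, 83030, 82432 and 67028 CPM in LP22. LP4 animal 2 was the highest and LP22 animal 4 the lowest, and the groups overlapped. The log2 ratio of the LP to the SP mean was 0.06, and -0.06 without LP4 animal 2.

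The gene of rank 2, ENSOARG00000000004, varied least among the first 5. It ranged from 78313 to 87020 CPM in SP4, from 71701 to 83224 in SP16, from 82254 to 85724 in LP4 and from 84162 to 94238 in LP22. Here LP4 animal 2, at 83450 CPM, lay among the other animals, and all LP22 animals were above all SP16 animals. The gene was the most abundant in all 4 LP22 animals, whereas ENSOARG00000024340 was the most abundant in all 4 SP16 animals. After 4 weeks the first place was split in both photoperiods. ENSOARG00000024340 held it in SP4 animals 1 and 4 and in LP4 animals 1 and 2. ENSOARG00000000004 held it in SP4 animals 2 and 3 and in LP4 animal 4. Since LP and SP entered the choice of genes, this is a description.

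Ranks 3 and 4, ENSOARG00000023941 and ENSOARG00000023024, followed ENSOARG00000024340 closely. The ratio of rank 1 to rank 3 lay between 1.05 and 1.12 in the 16 first libraries, and that of rank 1 to rank 4 between 1.25 and 1.29. The repeat libraries gave 0.995 and 1.43 in SP4 animal 1 and 1.07 and 1.36 in LP4 animal 2. By contrast, the ratio of rank 1 to rank 2 was 0.711 to 1.31 in 14 first libraries, and 8.99 and 104 in the unused libraries of animals 2 and 3 of LP4. These 3 genes thus kept a near-constant ratio over the first libraries, also in the unused ones. The repeat libraries left that range for rank 4 in both animals and for rank 3 in SP4 animal 1. Together they held 23.0% ± 1.83 of counts in SP (SD, n = 8) and 22.0% ± 2.30 in LP without LP4 animal 2 (SD, n = 6), in which they held 34.8%.

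Rank 5, ENSOARG00000023715, had 2 high animals. It stood at 81179 CPM in SP4 animal 1 and 82994 CPM in LP4 animal 2, and between 45838 and 60439 CPM in the other 13. In SP4 animal 1 it stood at 65675 CPM in the first library and at 87693 CPM in the repeat. Rank 6, ENSOARG00000000002, was likewise highest in SP4 animal 1, at 28567 CPM, with 15465 CPM in the first library and 34072 CPM in the repeat. The high value of rank 6 in SP4 animal 1 therefore rests mainly on the repeat library. For rank 5 the repeat library raised the value, but the first library alone was already above the other 13 animals.

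Ranks 7 to 10 were ENSOARG00000023915, ENSOARG00000022840, ENSOARG00000000016 and ENSOARG00000021259, with means of 12401, 8647, 5296 and 3282 CPM. ENSOARG00000023915 was even, from 10652 to 15179 CPM over all animals. ENSOARG00000022840 lay between 5995 and 9719 CPM in 14 animals and at 22741 CPM in LP4 animal 2. ENSOARG00000000016 lay between 4601 and 5516 CPM in SP and between 5219 and 7021 CPM in LP, apart from 3077 CPM in LP4 animal 2. ENSOARG00000021259 spread from 2004 to 4085 CPM in SP and from 2504 to 4644 CPM in LP. LP4 animal 2 was thus the highest animal for 6 of the first 10 genes (ranks 1, 3, 4, 5, 7 and 8) and the lowest for 1 (rank 9).

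Among the 98 genes, 9 carried ID numbers of 35 or less, and the next ID number among the 98 was 142. What these genes encode, and whether they lie in the nuclear or the mitochondrial genome, was not determined here. They were noticed after the values were seen and include ranks 2, 6 and 9 above. They held 11.9% ± 0.471 of counts in SP4, 10.5% ± 0.776 in SP16 and 12.4% ± 0.778 in LP22 (SD, n = 4 each), and 11.5% ± 0.456 in LP4 (n = 3). In LP22 the share ran from 11.7% to 13.4% and in SP16 from 9.79% to 11.2%, without overlap. SP4, from 11.3% to 12.4%, also lay wholly above SP16, while SP4 and LP4 overlapped. The separation of SP4 from SP16 rests on the repeat library of SP4 animal 1. In that animal the 9 genes held 9.38% in the first library, below every SP16 animal, and 13.7% in the repeat. LP4 animal 2 held 11.6% and lay within the other LP animals. All 9 were higher in the repeat than in the first library of SP4 animal 1, by 1.11- to 2.82-fold, against 23 of the other 89 genes. In the unused library of LP4 animal 3 all 9 were lower than the median of the 14 animals, by 8.73- to 261-fold. In SP16 against SP4 all 9 had a negative fitted log2 fold change, from -0.90 to -0.04, with no FDR under 0.186 (edgeR quasi-likelihood test, Benjamini-Hochberg adjustment over all genes). These fits used the sum of both libraries of SP4 animal 1.

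Across the 98 genes the ratio of the LP to the SP mean was close to 1. Of them, 45 had a higher and 53 a lower mean CPM in LP. Without LP4 animal 2 the split was 51 and 47, and 26 genes changed sign. The median log2 ratio was -0.01, and 0.01 without that animal. An absolute log2 ratio under 0.25 was found in 67 genes over 15 animals and in 85 over 14, and one of at least 0.5 in 6 and in 2. With TMM-scaled CPM, 59 genes were higher and 39 lower in LP over 15 animals, and 51 and 47 over 14. LP4 animal 2 was the lowest of the 15 animals for 55 genes and the highest for 23 in CPM, and the lowest for 17 and the highest for 43 with TMM scaling. The split of signs over 15 animals was therefore set by 1 animal and the scaling.

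**Figure D2:**
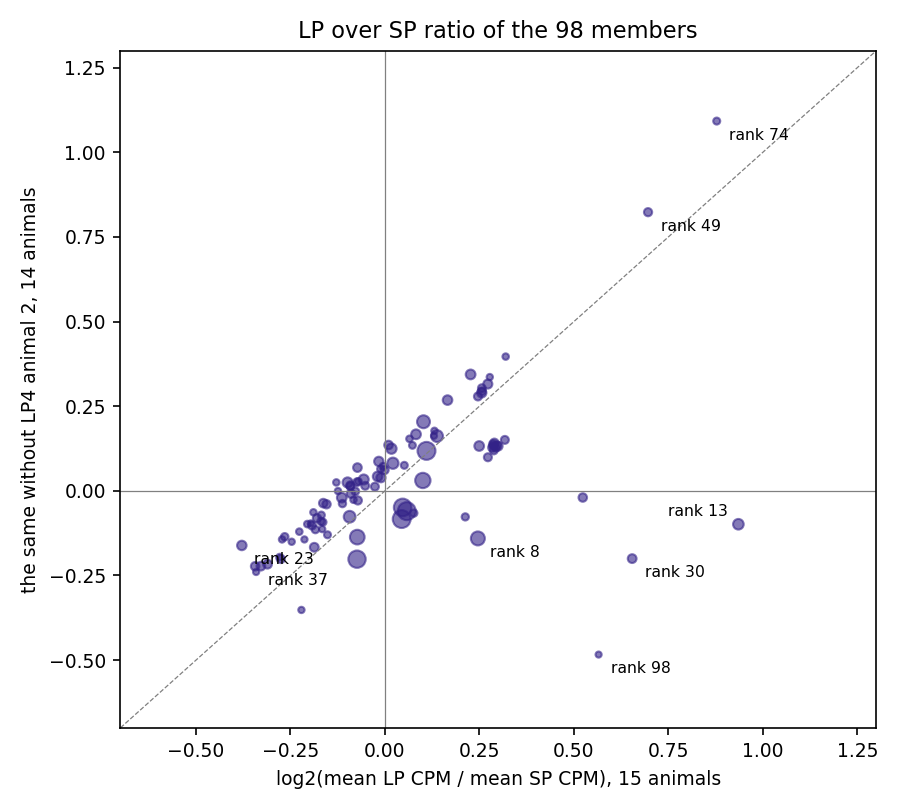
Log2 ratio of the LP to the SP mean CPM of each of the 98 genes over 15 animals (x axis) and over 14 animals without LP4 animal 2 (y axis), with larger points for higher mean CPM and a dashed line of equal values. Ranks 13, 30 and 98 lie at 0.94, 0.65 and 0.57 with that animal and at -0.10, -0.20 and -0.48 without it, while ranks 74 and 49 are high in both.

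The highest ratio was that of ENSOARG00000022315 (rank 13), with a log2 value of 0.94. It stood at 10992 CPM in LP4 animal 2 and between 851 and 2042 CPM in the other 14 animals, and without that animal the value was -0.10. The next was ENSOARG00000021831 (rank 74), at 0.88. It stood at 99.7, 2324, 175 and 447 CPM in SP4 and at 13.5, 460, 66.9 and 137 CPM in SP16. In LP4 it stood at 177, 33.7 and 418 CPM, and in LP22 at 330, 794, 1535 and 2698 CPM. The animals within SP4 and within LP22 differed by more than the group means did, and the value without LP4 animal 2 was 1.09.

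The lowest ratio was that of ENSOARG00000009137 (rank 23), at -0.38. It stood at 45.8, 473, 1.99 and 6655 CPM in SP4, at 404, 1.03, 11.9 and 4468 CPM in SP16, at 421, 27.7 and 108 CPM in LP4, and at 722, 2731, 3759 and 348 CPM in LP22. It owed its rank to a few animals of both photoperiods. ENSOARG00000019101 (rank 37), at -0.34, was more even. It lay between 825 and 1413 CPM in SP, between 653 and 1243 CPM in 6 LP animals and at 409 CPM in LP4 animal 2, and the ratio was -0.22 without that animal.

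The duration of the exposure within a photoperiod was no criterion in choosing the genes and was tested. The mean that chose them covered all 4 groups, however, so a gene can be among the 100 through the group where it was high. Ranks 94, 96 and 74 leaned in this way on SP16, SP4 and LP22. They are kept in the counts below, and their own values are a description. All 98 genes passed the filter on low counts, each test was fitted over 13446 genes, and a false discovery rate (FDR) under 0.05 over all of them was called. Between SP4 and SP16, 0 of the 98 genes passed with the edgeR quasi-likelihood test, where 0.00744% of all genes did, and 11 had an unadjusted p under 0.05, a share of 11.2% against 10.7% of all genes. DESeq2 called 2, ranks 15 and 55, and 33 of all genes. The median log2 fold change was -0.05 over the 98 genes and 0.00 over all genes, and 89 of the 98 had an absolute value under 0.5. In CPM, the groups did not overlap for 7 of the 98 genes, against 5.53% of all genes.

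The gene of rank 15 had the second-lowest adjusted p in SP16 against SP4. It stood at 1098, 1361, 1390 and 1426 CPM in SP4 and at 2196, 2380, 1530 and 2346 CPM in SP16, so that the groups did not overlap. Its log2 fold change was 0.67 ± 0.17 (SE) with an FDR of 0.134 (edgeR). Rank 26, one of the genes with a low ID number, went the other way, with a log2 fold change of -0.90 ± 0.25 (SE) and an FDR of 0.186 (edgeR). It stood at 2517, 1737, 1127 and 940 CPM in SP4 and at 912, 960, 795 and 802 CPM in SP16. The highest value was again SP4 animal 1, with 1103 CPM in the first library and 3112 CPM in the repeat, and with the first library alone the log2 fold change was -0.48.

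Between LP4 and LP22, 0 of the 98 genes passed with the edgeR quasi-likelihood test, where 0.0297% of all genes did, and DESeq2 called 0. At an unadjusted p under 0.05 there were 32 genes, rank 98 among them, a share of 32.7% against 8.7% of all genes. Without LP4 animal 2 there were 9, against 7.65% of all genes. In CPM the groups did not overlap for 16 of the 98 genes, against 8.09% of all genes, and without that animal for 23, against 16.6%. Ranks 98 and 30 had the lowest adjusted p. Rank 98 stood at 464, 2604 and 447 CPM in LP4 and at 218, 298, 196 and 218 CPM in LP22. Rank 30 stood at 1000, 4866 and 1067 CPM in LP4 and at 425, 694, 721 and 480 CPM in LP22. Rank 98 was among the 100 highest only through LP4 animal 2. Its mean over the other 14 animals was 377 CPM, where the 100th gene had 529.5 CPM, so its values in comparisons with LP4 are a description. Both genes were higher in every LP4 animal than in every LP22 animal, and in both LP4 animal 2 was several times above the others. Their log2 fold changes were -2.89 ± 0.58 and -2.52 ± 0.54 (SE), with FDRs of 0.140 and 0.146 (edgeR). Without LP4 animal 2 they were -0.97 ± 0.30 and -0.83 ± 0.30 (SE), with FDRs of 0.442 and 0.535.

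The difference between the photoperiod effect after the prolonged exposures and that after 4 weeks was tested as an interaction. It was called for 1 of the 98 genes, against 0.0892% of all genes, and 22 had an unadjusted p under 0.05, a share of 22.4% against 10.4% of all genes. There were 24 without LP4 animal 2, against 12.3% of all genes. Rank 98, a member only through LP4 animal 2, was among the 22. The gene called was ENSOARG00000024401 (rank 55), named here because it was the only call. It stood at 429, 530, 668 and 737 CPM in SP4 and at 1287, 984, 995 and 1077 CPM in SP16. It stood at 1025, 688 and 1081 CPM in LP4 and at 829, 841, 781 and 518 CPM in LP22. LP4 was mostly above SP4, with LP4 animal 2 inside the SP4 range, and every LP22 animal was below every SP16 animal. The log2 interaction was -1.40 ± 0.25 (SE) with an FDR of 0.0439 (edgeR), and -1.37 ± 0.26 with an FDR of 0.0417 without LP4 animal 2. The call was lost in 16 of 27 other settings, including when SP4 animal 1 was left out (FDR 0.0814) and when only its first library was used (FDR 0.0507), and its direction was kept in all 27. In that animal the gene stood at 693 CPM in the first library and 318 CPM in the repeat.

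Ranks 94, 30 and 98 came next in the interaction and did not pass, with log2 values of -1.56 ± 0.36, -3.07 ± 0.72 and -3.34 ± 0.77 (SE) and FDRs of 0.114, 0.121 and 0.114 (edgeR). When LP4 animal 2 was left out the values were -1.01 ± 0.26, -1.37 ± 0.39 and -1.42 ± 0.39 (SE), with FDRs of 0.131, 0.159 and 0.137. Rank 98 was a member only through LP4 animal 2, and LP4 enters the interaction, so its values here are a description. Rank 94 stood at 335, 477, 471 and 510 CPM in SP4 and at 926, 567, 762 and 662 CPM in SP16, without overlap. It stood at 476, 768 and 587 CPM in LP4 and at 337, 334, 553 and 481 CPM in LP22. All its SP16 values lay above the 520.5 CPM of the last gene inside the 100, and all its SP4 values below. Its place among the 100 thus leaned on SP16, and its values here are also a description. For these genes, as for rank 55, the mean was higher in SP16 than in SP4 and lower in LP22 than in LP4.

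**Figure D3:**
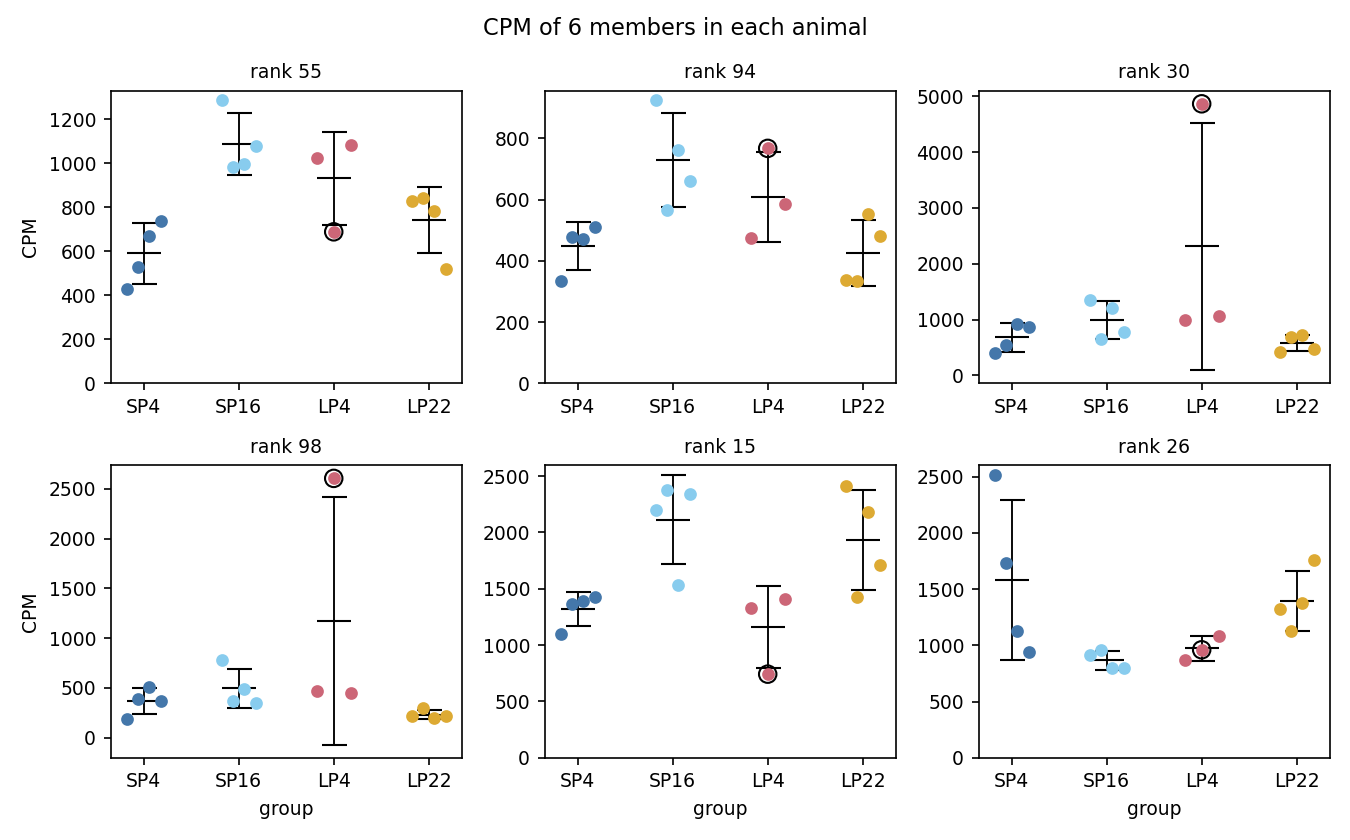
CPM (y axis) of the genes of ranks 55, 94, 30, 98, 15 and 26 in each of 15 animals, by group, with the group mean and SD in black and LP4 animal 2 circled. Rank 55 is higher in all SP16 than in all SP4 animals, and LP4 animal 2 reaches 4866 CPM for rank 30 and 2604 CPM for rank 98.

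The photoperiod comparisons at each duration are given as a description. Genes that separated LP from SP were removed in choosing the 98, which bears on these counts, so nothing is read from them against the shares of all genes. In LP4 against SP4, 5 of the 98 genes had an FDR under 0.05 with edgeR, 4 higher and 1 lower in LP4, where 1.79% of all genes did, 1.22% higher and 0.573% lower. At an unadjusted p under 0.05 there were 38, against 14.3% of all genes, and 17 without LP4 animal 2, against 13.3%. The 5 genes were ranks 93, 55, 30 and 98, which were higher, and rank 85, which was lower. Without LP4 animal 2 there were 2, ranks 93 and 55, with 227 of 13774 genes tested. Rank 93 stood at 444, 545, 482 and 488 CPM in SP4 and at 739, 456 and 678 CPM in LP4, where animal 2 lay within the SP4 range. Rank 85 stood at 631, 620, 636 and 622 CPM in SP4 and at 531, 225 and 468 CPM in LP4, below every SP4 animal. In LP22 against SP16, 0 of the 98 genes had an FDR under 0.05 with edgeR, where 3.23% of all genes did, 13 had an unadjusted p under 0.05 (16.2% of all genes), and DESeq2 called 2. Without LP4 animal 2, which is in neither group but enters the shared fit, 3 of the 98 passed, ranks 46, 98 and 94, with 582 of 13774 genes tested. Of the 98 genes, 35 were higher on LP at both durations, 25 lower at both, 18 higher after 4 weeks only and 20 higher after the prolonged exposure only. Over 14 animals these numbers were 20, 25, 18 and 35.

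The spread between animals of a group differed widely among the 98 genes. The coefficient of variation within SP4, SP16 and LP22 had a median of 11.6% over the 98 genes and of 19.0% over the 13446 genes tested, most of which had far lower counts. Counting error alone gave a median of 2.22% for the 98 genes, well below that spread. The coefficient was under 10% for 44 genes, over 30% for 10 and over 50% for 4, ranks 23, 74, 49 and 18. Rank 49 is given as an example. It stood at 342, 276, 275 and 1331 CPM in SP4 and at 579, 381, 541 and 1777 CPM in SP16. The animal numbered 4 was the highest in each of these groups, as it was for ranks 23 and 18. For rank 74 the animal numbered 2 was the highest in both. In LP22, rank 49 stood at 1079, 1349, 1580 and 1061 CPM. There the animal numbered 3 was the highest for ranks 49, 23 and 18, and the animal numbered 4 for rank 74.

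**Figure D4:**
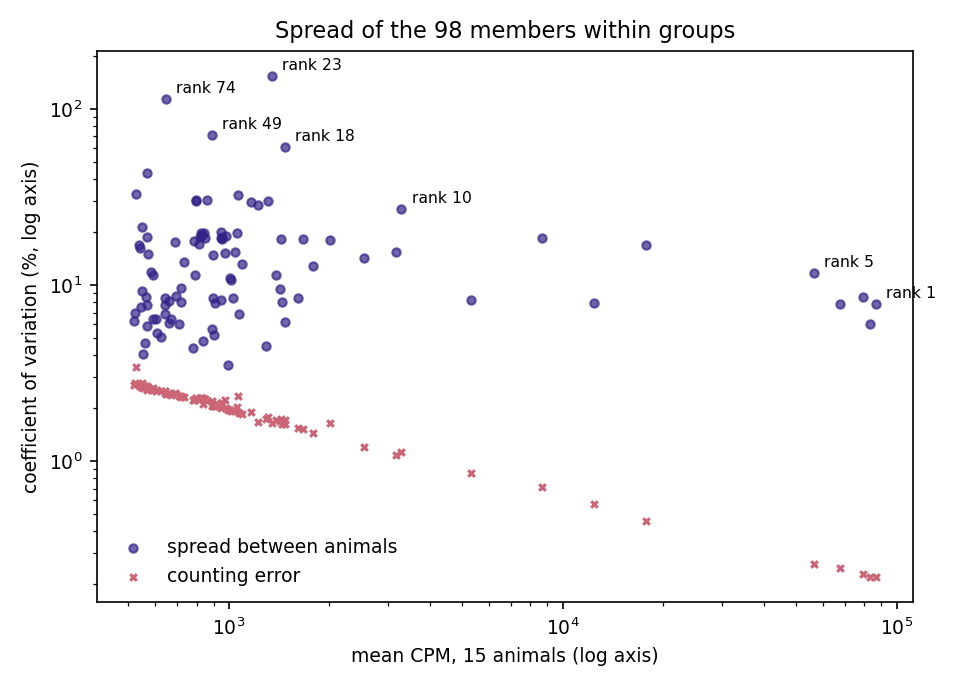
Coefficient of variation within SP4, SP16 and LP22 (%, log axis) against mean CPM (log axis) of each of the 98 genes, with the part that counting error alone gives as crosses. Every gene lies above its counting error, with a median of 11.6% against 2.22%, and ranks 23, 74, 49 and 18 exceed 50%.

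Some of the 98 genes kept a near-constant ratio of counts over the libraries. For each of 4753 pairs, the counts in the 18 libraries were compared by a chi-square for a constant ratio, as a description. The median chi-square per degree of freedom was 263, and 60 pairs had a value under 2.5. These pairs joined 20 genes into 3 sets, seen in the data and not tested further. Of the 65 pairs within the sets, 5 had a value of 2.5 or more. With a threshold of 1.5, 16 genes fell into 4 sets. Whether these genes share reads was not tested.

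The largest set had 10 genes (ranks 31, 39 to 42, 52, 53 and 56 to 58), whose 45 pairs had values of 0.608 to 2.10 per degree of freedom and which together held 0.902% of counts. Their mean was 885 ± 136 CPM per gene in SP4, 748 ± 117 in SP16 and 897 ± 222 in LP22 (SD, n = 4 each), and 1137 ± 432 in LP4 (n = 3), where animals 1, 2 and 4 stood at 846, 1633 and 931. The second set had 5 genes (ranks 24, 27, 50, 60 and 61), with values of 1.21 to 4.19 per degree of freedom. Its mean level ran from 474 to 1290 CPM in the 15 animals, against 23.3 and 7.61 CPM in the unused libraries of animals 2 and 3 of LP4. The third set had 5 genes (ranks 48, 54, 82, 92 and 100), with values of 0.993 to 3.13, and was even, from 624 to 785 CPM in 14 animals, with 363 CPM in LP4 animal 2.

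**Figure D5:**
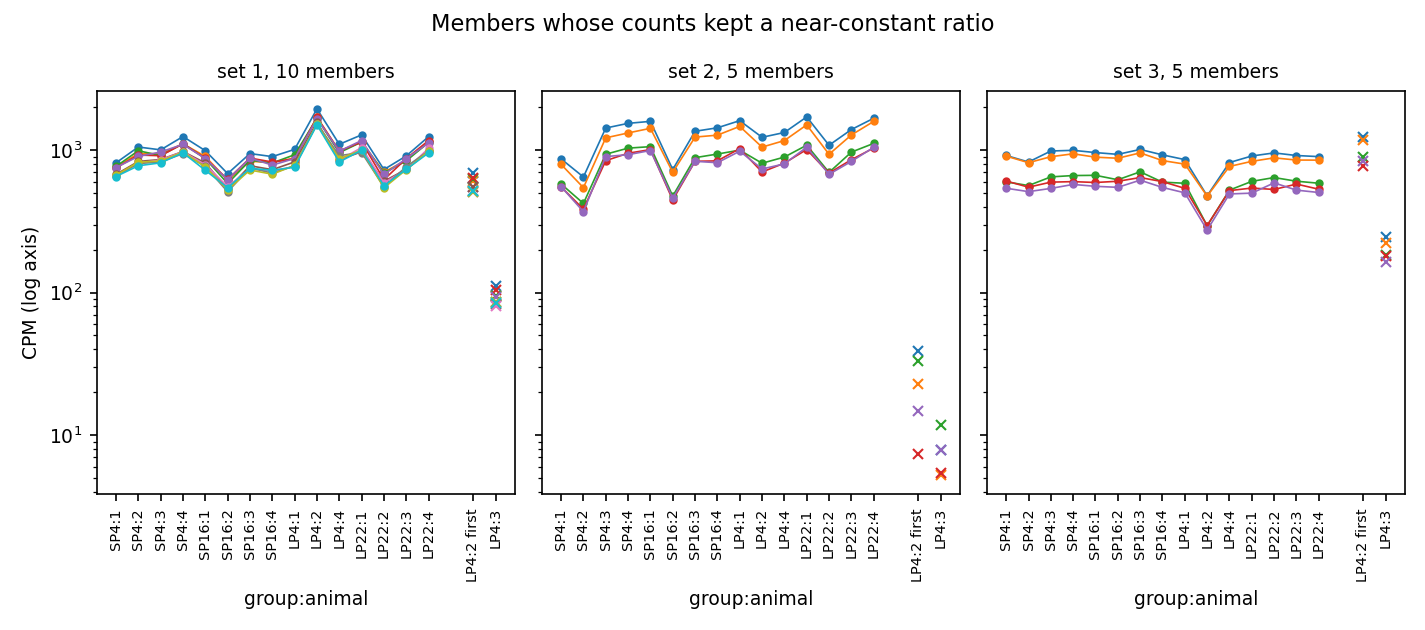
CPM (log axis) of the genes of the 3 sets in each of 15 animals, by group and animal, with the 2 unused libraries as crosses and thin lines joining the values of 1 gene. Within a set the genes run in parallel, and LP4 animal 2 is the highest of the 15 animals in the first set (1633 CPM on average) and the lowest in the third (363 CPM).

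The libraries not used held the 98 genes in other proportions. In LP4 animal 3 the first 5 genes held 60.0% of counts and ranks 1, 3 and 4 alone 54.1%, while 59 of the 98 genes were more than 4-fold below the median of the 14 animals and 18 more than 50-fold below it. In the first library of LP4 animal 2, 22 genes were more than 4-fold below that median. In its repeat library 2 genes were, and 22 were more than 1.5-fold above it. In SP4 animal 1, the repeat library was more than 1.5-fold below the first for 23 genes and above it for 6. Rank 30 stood there at 930 and 169 CPM and rank 98 at 408 and 96.6 CPM in the first and the repeat library, and both genes were highest in LP4 animal 2 among the 15 animals.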

How the data were processed

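RNA from the PT of castrated male Scottish Blackface sheep was sequenced by the authors in 18 libraries of 16 numbered samples, called animals here. Per the study's methods and the submitters' processing notes, reads were aligned with Bowtie to Oar_v3.1, handled with SAMtools and counted per gene with HTSeq. The deposited values are raw counts per gene, not normalized. Versions, strand setting and annotation release are not given in the sources used here, nor could gene length or GC content be attached to any ID. Each table listed 25197 gene IDs and 5 summary lines, which were removed; the line for reads in no feature held 47.2% to 84.5% of the aligned reads of a library. Totals over genes were 1088288 to 6331553 counts per library. No library pair held identical counts.

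The members and all comparisons were chosen with earlier results of these data known. In LP4, animal 3 and the first library of animal 2 were left out, both libraries of SP4 animal 1 were summed, and 15 animals remained. CPM is a count over 1000000 gene counts of the library. Tests used edgeR 4.0.16 in R 4.3.3 (filterByExpr with a minimum count of 10 and a minimum total of 15, TMM, glmQLFit and glmQLFTest, 2-sided, all 4 groups in 1 fit), with Benjamini-Hochberg adjustment over 13446 genes and a call at FDR under 0.05. The SE of a log2 fold change is its size over the square root of F. The procedure was run on simulated counts with known changes, without a library that stood apart as that of LP4 animal 2 did. Its outcome is not reported here. The alternatives were DESeq2 1.42.0, other scalings, filters, libraries and rankings, a replicate block and leaving out each animal; the fit without repeat libraries was added after seeing the data. IDs are printed for the 10 highest genes and the 2 highest and 2 lowest ratios of LP to SP, by a fixed rule, and also for the genes the selection removed, the last gene inside it and the only interaction call, which were chosen after their values were seen. Figures used matplotlib 3.10.9.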

Additional observations from a re-analysis of the deposited data

Results flagged for a closer look

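Among animals of a group of 4, 25 measures (the shares of counts and the CPM of the genes named by ID or followed by rank) were searched for a value far from the other 3, which gave 5 in 75 groups, where chance gives about 1 in 20. ENSOARG00000024340 (rank 1) and rank 4 were low in LP22 animal 4, at 67028 CPM against 80733 to 83030 CPM and at 52473 CPM against 64408 to 65335 CPM. Rank 23 was high in SP4 animal 4, at 6655 CPM against at most 473 CPM, and in SP16 animal 4, at 4468 CPM against at most 404 CPM. Rank 74 was high in SP4 animal 2, at 2324 CPM against at most 447 CPM.

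The photoperiod effect on ENSOARG00000024401 (rank 55) differed between the prolonged exposures and 4 weeks by a log2 value of -1.40, with an FDR of 0.0439 (edgeR quasi-likelihood test). Outside the data used, the 98 genes held 57.3% and 67.1% of counts in the unused libraries of animals 2 and 3 of LP4, against at most 51.9% in the SP animals and 66.6% in LP4 animal 2 as used. Their causes were not tested.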

How the results depend on the processing

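The difference in share between LP and SP, 1.71 points, was 6.99 with TMM and 7.05 with DESeq2 size factors (scaled values, which no longer sum to a fixed total), -0.233 without repeat libraries and -0.865 with LP4 animal 2 left out and the genes chosen anew. Leaving out each animal in turn gave -0.865 to 2.47 points, negative only without LP4 animal 2. The number of genes, 98, was 50 or 196 when the 50 or 200 highest were taken, and 96 to 98 without 1 animal. In SP16 against SP4, 0 genes passed; DESeq2 called 2 (of 33 among all genes), no filter on low counts 1 (of 31), and the fits without 1 animal 0 to 2. In LP22 against LP4, 0 passed; no filter gave 3 (of 32 among all genes) and the fits without 1 animal 0 to 4 (3 without LP4 animal 1, 4 without LP4 animal 4). The 1 interaction call became 0 with all 16 animals, with either library of SP4 animal 1 alone and without scaling, became 4 without a filter (of 38), and was 0 or 1 without 1 animal; it was kept only without SP4 animal 4, LP4 animal 2, LP22 animal 2 or LP22 animal 4. In LP4 against SP4 the 5 calls became 0 with all 16 animals, without scaling and with only those groups fitted, 2 without LP4 animal 2 or with the first library of SP4 animal 1, 1 without repeat libraries (of 173 among all genes), and 1 to 10 without 1 animal (10 without LP4 animal 4). In LP22 against SP16 the 0 calls became 3 without LP4 animal 2 (of 582 among all genes), 9 without repeat libraries (of 604), 2 with DESeq2 (of 410), 2 without a filter (of 447), 8 with only those groups fitted (of 515), and 0 to 3 without 1 animal. These causes were not tested, and lone animals left in a group are assumed to vary like the rest.

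The labels repeat the numbers 1 to 4 in every group. Same-numbered animals deviated from their group means with a mean correlation of -0.0102 over 21 pairs (-0.163 to 0.172), so the numbers were not taken to pair animals. With the number as a replicate block the interaction call became 0, and the calls in LP4 against SP4 and in LP22 against SP16 were 2 and 2 (of 158 and 381 among all genes).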
